A study of Homo sapiens with 12 samples.

Results

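RNA sequencing was used to follow the guidance genes of SW1783 cells, a human astrocytoma line. Dosed cells were exposed for 24 h to a water extract of Aconitum carmichaeli Debeaux (ACD). Semaphorins, plexins, neuropilins, ephrins and Eph receptors were the genes described. They were taken as all protein-coding genes whose symbols carry the names SEMA, PLXN, EFNA, EFNB, EPHA or EPHB, plus NRP1 and NRP2, which gave 54 of the 60675 gene IDs counted. Vehicle cells were given PBS containing 2% DMSO, and dosed cells were given extract at 20 (low), 100 (medium) or 500 µg/mL (high), with 3 libraries in each of the 4 groups. The extract stock was made in the same solvent as the vehicle, PBS with DMSO, so DMSO was not given to vehicle cells alone. Whether the weaker doses were diluted in that solvent is not stated. The DMSO percentage is that of the solvent, which was diluted further when added to the culture medium. The groups had the same cell line and treatment time, and no gene was targeted in any of them. Sample titles and treatment labels are the source of the name of the extract, because the treatment protocol attached to the samples describes a different herb, Poria cocos. Nothing in the labels says that the 3 libraries of a group came from separate cultures, so the p-values below measure the spread between these libraries, which may be technical. The line is a single established culture, and it was not compared with astrocytes or with other glioma cells.

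The libraries held 18863863 to 24200576 counts. Of 14 markers listed for astrocytes and glioma, 6 had a mean of at least 1 transcript per 1000000 (TPM): VIM, CD44, CHI3L1, SOX9, NES and SLC1A3. The others were low, with AQP4 at 0 counts in every library and at most 6 counts of GFAP, 5 of S100B and 2 of ALDH1L1. SLC1A2 reached at most 9 counts, SOX2 2, FABP7 1 and OLIG2 27. Of 11 markers listed for colorectal epithelium, CDX2 and KRT20 were also at 0. The 2 with a mean of at least 1 TPM were KRT18 at 201 TPM and KRT8 at 8.95 TPM. Mitochondrial ribosomal RNA took 2.43% to 2.53% of TPM with vehicle, 8.19% to 8.73% at the low, 19.8% to 20.7% at the medium and 15.4% to 16.1% at the high dose. TPM was therefore not used to compare doses, and served to order genes with vehicle. As means over all 12 libraries it served to apply the marker minimum and to find the highest genes per length of each family and marker list. Doses were compared on normalised counts, which are counts divided by a size factor for each library.

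Semaphorins are secreted, membrane-spanning or lipid-anchored cues that steer axons and migrating cells, and most of them act through plexin receptors on the cell that meets them. Most of the secreted class 3 semaphorins use a neuropilin as co-receptor, and neuropilins also bind vascular growth factors. Eph receptors are tyrosine kinases that meet membrane-bound ephrins on neighbouring cells, the A ephrins being lipid-anchored and the B ephrins membrane-spanning, and both sides of the contact can signal. In the brain these families set boundaries and guide axons, and in glioma cells they have been studied for adhesion and migration.

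The 54 genes comprised 20 semaphorins, 9 plexins, 2 neuropilins, 6 ephrin-A genes, 3 ephrin-B genes, 9 EphA receptors and 5 EphB receptors, or 29 ligands and 25 receptors. Gene coordinates below are those of GENCODE v44 on GRCh38. Counts were seen for 51 of the genes. EPHA6, EPHA10 and the readthrough gene EFNA4-EFNA3 were at 0 in every library, which allows up to 3 counts per library by counting error alone. EFNA4-EFNA3 shares 100% of its exon bases with EFNA3 and EFNA4 on the same strand. Its 0 therefore also depends on how reads that fit several genes were divided, which that limit does not cover. A mean normalised count of at least 10 was reached by 42 genes, of at least 100 by 29. The 9 genes with a count but a mean under 10 were EFNA2, EPHA1, EPHA7, EPHA8, SEMA3E, SEMA3G, SEMA4A, SEMA5B and SEMA6A.

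The promoters of 4 genes are printed here because they belong to the 3 genes that fell past both thresholds at the medium as well as the high dose, and to the 1 gene that rose past them. Each is the 250 bases before the RefSeq start of the gene in GRCh38.p14, read 5′ to 3′ on the strand of the gene, and capitals mark a GC box (GGGCGG, the core of an SP1 site, searched on both strands). EPHA3 lies at chr3:89107371-89107620 on the plus strand, EPHA5 at chr4:65670490-65670739 on the minus strand, SEMA3D at chr7:85187057-85187306 on the minus strand, and PLXNC1 at chr12:94148327-94148576 on the plus strand.
EPHA3: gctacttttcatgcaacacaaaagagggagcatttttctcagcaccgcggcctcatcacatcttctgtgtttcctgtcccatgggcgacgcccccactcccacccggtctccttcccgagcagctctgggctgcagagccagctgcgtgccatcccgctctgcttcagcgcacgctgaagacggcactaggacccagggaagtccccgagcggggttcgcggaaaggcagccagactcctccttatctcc
EPHA5: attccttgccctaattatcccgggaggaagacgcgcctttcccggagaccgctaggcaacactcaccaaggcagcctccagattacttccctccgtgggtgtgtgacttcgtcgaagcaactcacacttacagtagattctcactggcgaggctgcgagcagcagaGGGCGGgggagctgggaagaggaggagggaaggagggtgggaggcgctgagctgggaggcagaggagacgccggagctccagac
SEMA3D: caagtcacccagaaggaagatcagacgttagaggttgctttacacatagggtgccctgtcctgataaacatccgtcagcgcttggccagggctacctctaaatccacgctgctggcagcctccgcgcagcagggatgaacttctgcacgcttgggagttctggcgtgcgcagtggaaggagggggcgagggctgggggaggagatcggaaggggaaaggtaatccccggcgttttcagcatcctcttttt
PLXNC1: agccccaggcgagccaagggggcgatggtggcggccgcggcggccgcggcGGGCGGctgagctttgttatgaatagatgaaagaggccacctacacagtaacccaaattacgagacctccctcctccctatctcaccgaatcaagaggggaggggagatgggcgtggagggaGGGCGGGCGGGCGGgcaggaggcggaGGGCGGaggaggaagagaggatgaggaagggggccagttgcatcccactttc
The PLXNC1 window held 5 GC boxes, 3 of them in a run in which neighbouring boxes share 2 bases, whereas EPHA5 held 1 and EPHA3 and SEMA3D held 0. GC content was 65.2%, 61.2%, 61.2% and 57.6% for PLXNC1, EPHA5, EPHA3 and SEMA3D, beside a median of 62.4% over 15344 promoters of protein-coding genes.

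RefSeq promoters were matched for 48 of the 54 genes. A GC box was found in 39 of the 48, and in 57% of the 15344 promoters. Of the 14 matched genes that fell at the high dose, 11 held one: EFNA4, EFNA5, EFNB2, EPHA4, EPHA5, EPHB2, EPHB3, PLXND1, SEMA4B, SEMA4D and SEMA5A. The other letters searched, on both strands, were those of AP-1 (TGANTCA, in 4.93% of all promoters), of the ATF4 composite site (TGATGNAA, 2.22%), of TEAD factors (GGAATG, 10.1%) and of the E-box (CACGTG, 7.84%). They were found in 0, 1, 4 and 4 of the 48 promoters, and in 0, 0, 0 and 1 of the 14, the 1 being SEMA4D. For PLXNA4, SEMA4B and SEMA4D the RefSeq start lies 72218, 24316 and 2474 bases from the 5′ end of the gene in GENCODE, so that their windows belong to one of several starts. Among the other matched genes the same holds for EPHB6, PLXNB2 and SEMA4A, at 7695, 5977 and 2578 bases. EFNA4 and the readthrough gene EFNA4-EFNA3 start at nearly the same place, so nearly the same window is counted for each among the 39. A match in these windows is a description of their letters only.

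With vehicle, each family was led by 1 or a few genes when levels were expressed per exon length. Among semaphorins SEMA3C, a secreted class 3 member, was highest at 306 ± 11 TPM (mean ± SD, n = 3). It was followed by the lipid-anchored SEMA7A at 90.6 ± 4.7 TPM, SEMA5A at 77.5 ± 2.8 TPM and SEMA3A, the classical growth cone collapsing factor, at 57.9 ± 0.57 TPM. PLXNB2 led the plexins at 174 ± 2.1 TPM, well above PLXNA3 at 36.4 ± 0.55 TPM and PLXND1 at 36.2 ± 1.1 TPM, which did not differ beyond their spread. NRP1 stood at 246 ± 4.5 TPM and NRP2 at 64.3 ± 1.8 TPM. EPHA2, a receptor widely studied in glioma, stood at 259 ± 6.2 TPM, above EPHA3 at 58.6 ± 3.2 TPM, EPHA5 at 18.1 ± 0.32 TPM and EPHA4 at 8.66 ± 0.33 TPM. EPHB2 at 76.5 ± 2.0 TPM and EPHB4 at 73.5 ± 1.7 TPM were close, and their order over all 12 libraries turned when the longest transcript replaced the union of exons as the length (63.7 and 62.6 TPM against 54.4 and 60.0 TPM). EFNB2, the ligand of EPHB4, led the ephrins at 85.0 ± 4.2 TPM, and EFNA4 led the ephrin-A genes at 17.5 ± 2.1 TPM.

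**Figure D1:**
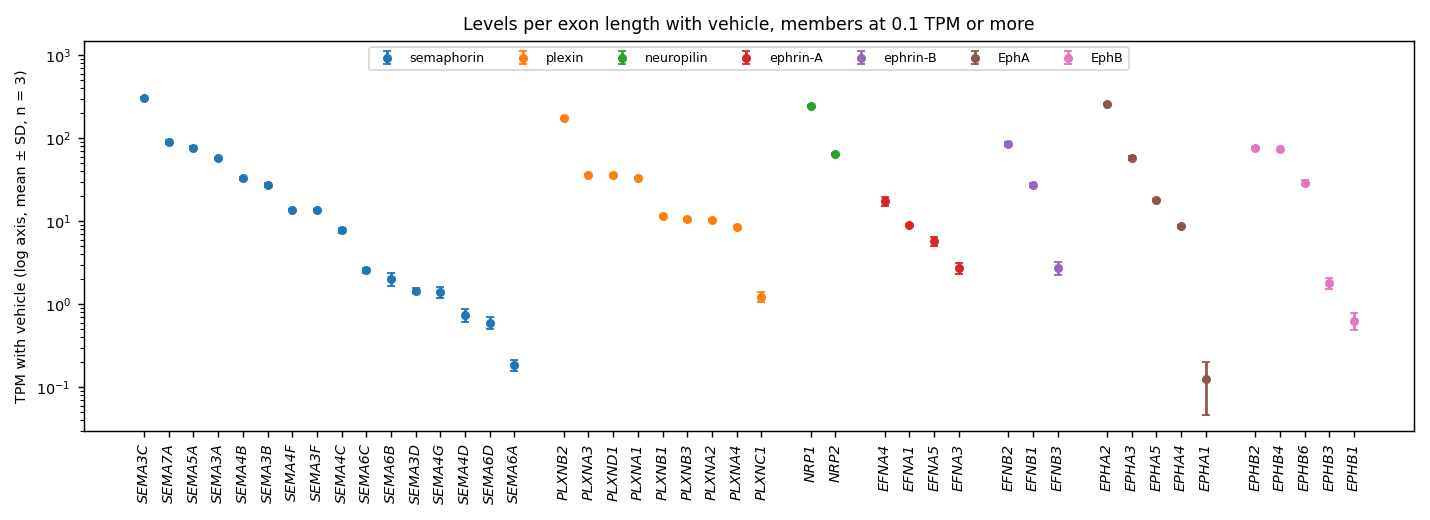
Level of each guidance gene with vehicle in TPM, which divides by exon length (log axis), as mean ± SD of 3 libraries, for genes at 0.1 TPM or more, coloured by family. SEMA3C, EPHA2, NRP1 and PLXNB2 stand above the other genes, and EPHA1 at the foot of the plot rests on a few counts.

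Much of this set was lower at the high dose. A gene was called when its DESeq2 adjusted p was under 0.05 and its fold change over 1.5. By that rule 16 of the 47 guidance genes tested fell and 1 rose, which is 36.2% of those tested, while 18.2% of all 19453 genes tested were called. All genes divided nearly evenly, with 9.57% called lower and 8.66% called higher, whereas 34% of the guidance genes were called lower and 2.13% higher. At any fold change, 30 guidance genes were lower and 5 higher with an adjusted p under 0.05 in DESeq2, or 74.5% of those tested, against 46.5% of all genes (22.6% lower and 23.9% higher). Their median log2 fold change was -0.42, while the median over all genes tested was -0.01. When libraries were scaled by their total counts instead, the median of all genes moved to -0.12, the calls over all genes from 1684 higher and 1862 lower to 1293 and 2494, and those of the guidance genes to 0 higher and 19 lower. These are counts, with no test of the set as a whole. In bulk RNA a fall can come from fewer cells expressing a gene or from less of its RNA in each cell, which cannot be told apart here.

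At the medium dose 3 of 42 guidance genes tested were called, EPHA3, EPHA5 and SEMA3D, all lower, which is 7.14% where 3.81% of all genes were called (1.48% lower and 2.34% higher). Another 11 passed the adjusted p alone, so that 11 of the 14 were lower and 3 were higher, among all genes 29.5% (14.5% lower and 15.1% higher). The median of the guidance genes was -0.10 and that of all genes tested -0.00. Scaling by total counts moved the calls over all genes from 329 higher and 208 lower to 241 and 440, and left the same 3 guidance genes called. At the low dose 0 of 28 were called by DESeq2, where 0.118% of all genes were, and 4 passed the adjusted p alone (EPHA2, NRP1 and SEMA5A lower, NRP2 higher) beside 3.29% of all genes. edgeR also called 0 at the low dose, and 8 of the 51 guidance genes with a count, or 15.7%, had an unadjusted p under 0.05 in DESeq2, as did 5.01% of all genes with a count. DESeq2 gave no adjusted p there to 23 guidance genes with counts, since genes with a mean normalised count under 263 were left out of the adjustment. A likelihood ratio test in DESeq2 found 34 of 47 guidance genes, or 72.3%, to differ among the 4 groups, and 45.8% of all genes. The 3 comparisons with vehicle share the same 3 vehicle libraries.

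**Figure D2:**
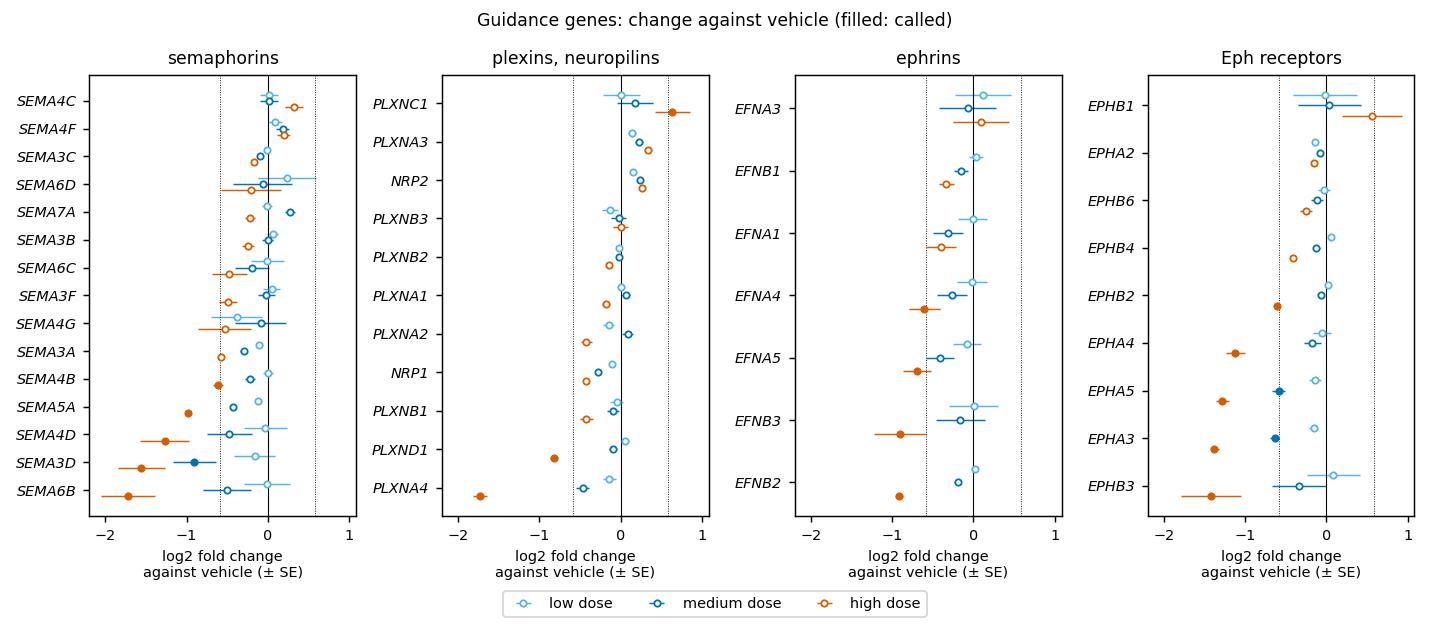
Log2 fold change against vehicle with its standard error (DESeq2, 3 libraries per group) for the 42 guidance genes whose mean normalised count reached 10, at the low, medium and high dose, with dotted lines at a fold change of 1.5 and filled points for called genes. The filled points lie on the lower side except for PLXNC1. For each of the 17 genes called at the high dose that dose lies furthest from 0, which their choice by that dose largely fixes.

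Among Eph receptors, 5 fell at the high dose: EPHA3, EPHA4, EPHA5, EPHB2 and EPHB3. EPHA3, a receptor for A ephrins on chromosome 3 (89107621 to 89482134, plus strand), held normalised counts of 2080.2, 1952 and 1894 with vehicle, 1836, 1712 and 1765 at the low, 1253, 1252 and 1313 at the medium and 788, 755 and 739.8 at the high dose. The 4 groups formed separate steps, with every medium library under every low one and every high library under every medium one. Its log2 fold change was -0.63 ± 0.053 (± SE, adjusted p = 2.9e-31) at the medium and -1.38 ± 0.056 (adjusted p = 2.4e-131) at the high dose in DESeq2. EPHA5, a neural receptor of the same class (chromosome 4, 65319563 to 65670495, minus strand), gave 893, 923 and 916 with vehicle, 784, 801 and 894 at the low, 595, 643 and 579.5 at the medium and 362, 362 and 401 at the high dose. Low dose libraries overlapped those with vehicle, and the other groups stood apart. Its log2 fold change was -0.59 ± 0.075 at the medium dose (adjusted p = 1.4e-13, DESeq2), a fold change of 1.50 that sits on the threshold. Without vehicle replicate 2 or 3, or medium replicate 1 or 3, it came to -0.58, -0.58, -0.58 and -0.56 and was not called, nor was it by edgeR at -0.58. At the high dose it was -1.28 ± 0.079 (adjusted p = 5.7e-57).

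EPHA4, which binds both kinds of ephrin, passed the test against vehicle at the high dose only. Its normalised counts were 336, 344 and 325 with vehicle, 345, 323 and 302 at the low, 309, 279.6 and 305 at the medium and 176, 137 and 153 at the high dose. The high dose libraries lay under all others, and the log2 fold change was -1.12 ± 0.12 (adjusted p = 4.4e-20, DESeq2), against -0.17 ± 0.11 at the medium dose (adjusted p = 0.25). EPHB2 gave 4958, 4725 and 5040.3 with vehicle, 5057, 5072 and 4783 at the low, 4661, 4813 and 4629 at the medium and 3317, 3089 and 3264 at the high dose. Vehicle, low and medium libraries overlapped and the high dose lay under them, at a log2 fold change of -0.61 ± 0.038 (adjusted p = 4.5e-56, DESeq2). Its fold change of 1.52 was just past the threshold, and without high replicate 2 its log2 fold change was -0.58 (adjusted p = 6.7e-42) and it was not called. EPHB3 was a low gene, at 34.8, 48.2 and 42.7 with vehicle, 29.8, 65.3 and 38.7 at the low, 30.1, 32.6 and 36.8 at the medium and 12.7, 15.3 and 18.7 at the high dose. Its high dose libraries lay under all others and its low dose libraries were the most spread, and the log2 fold change from vehicle to high was -1.42 ± 0.37 (adjusted p = 3.4e-04, DESeq2).

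EPHA2, the highest Eph receptor per length, moved little, with 5624, 5375 and 5483 with vehicle, 5179, 5068 and 4742 at the low, 5279, 5271 and 5113 at the medium and 4978, 4816 and 5076 at the high dose. Every dosed library lay under every vehicle library, and the log2 fold change of -0.15 ± 0.036 (adjusted p = 1.0e-04, DESeq2) was far under the fold threshold. As EPHA3, EPHA4 and EPHA5 fell and EPHA2 hardly did, EPHA2 made up 75.2% ± 0.45 of the EphA normalised counts per kilobase with vehicle and 87.2% ± 0.32 at the high dose (SD, n = 3), while the share of EPHA3 went from 17.0% ± 0.51 to 8.43% ± 0.35. EPHB4 (2423 ± 35.8 to 1825 ± 48.3) and EPHB6 (797 ± 58.4 to 669.6 ± 5.68), which lacks an active kinase, were lower at the high dose by log2 fold changes of -0.41 ± 0.041 and -0.25 ± 0.072 (adjusted p = 1.3e-22 and 0.0016, DESeq2), both under the fold threshold. EPHB1 was the sole Eph receptor with a mean over 10 whose high dose mean was above its vehicle mean, at 19.5, 22.8 and 14.6 with vehicle and 24.3, 29.7 and 29.9 at the high dose, and it did not pass the test (log2 fold change 0.56 ± 0.37, adjusted p = 0.23, DESeq2).

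**Figure D3:**
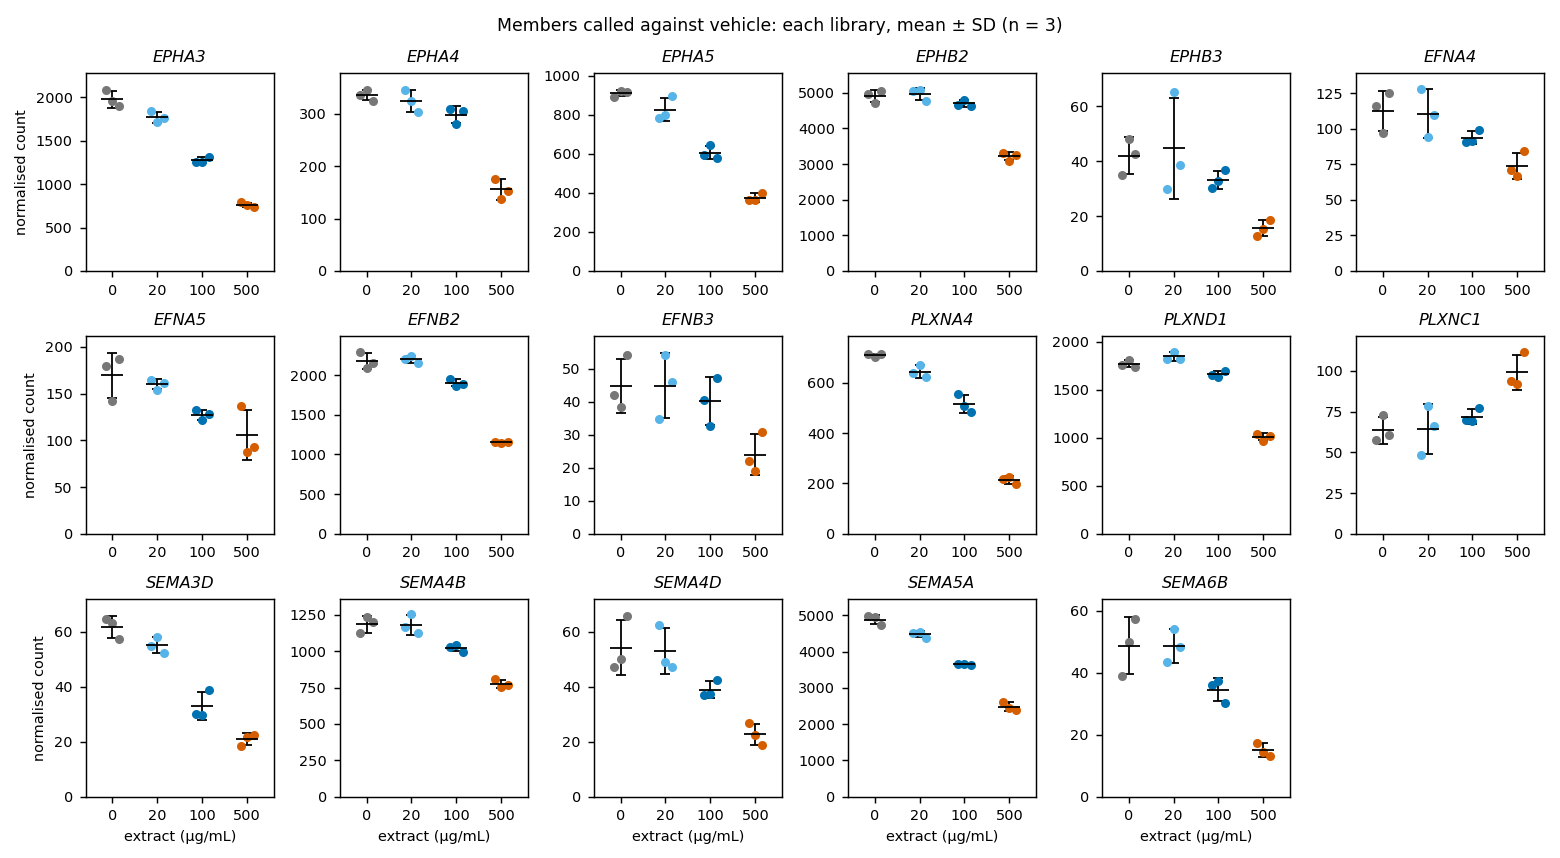
Normalised counts of the 17 guidance genes called at the high dose, each library as a point with group mean ± SD (n = 3), against the dose of the extract in µg/mL (0 is vehicle). The high dose libraries of the 16 genes that fell lie under all of their vehicle libraries, and those of PLXNC1 lie above. At the medium dose EFNB2, EPHA3, EPHA5, PLXNA4, SEMA3D, SEMA4B and SEMA5A pass the adjusted p, with every library under every vehicle library. Genes chosen by these tests are largely bound to show such separation. Its share over all genes was not counted.

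Of their ligands, EFNA4, EFNA5, EFNB2 and EFNB3 fell. EFNB2, which meets EPHB4 and EPHA4 among others, gave 2293, 2095 and 2149 with vehicle, 2197, 2245 and 2158 at the low, 1953, 1866 and 1893 at the medium and 1162, 1149.6 and 1159.8 at the high dose. The low dose overlapped vehicle, the medium dose lay just under it and the high dose far under it. Its log2 fold changes were -0.19 ± 0.046 (adjusted p = 1.7e-04) at the medium and -0.91 ± 0.048 (adjusted p = 1.3e-78) at the high dose in DESeq2. An unnamed gene on the opposite strand, ENSG00000284966, covers 36.4% of the exon bases of EFNB2, and whether the counting used strand is not stated. EFNB1 went from 461 ± 28.1 to 366 ± 14.4, a log2 fold change of -0.33 ± 0.088 (adjusted p = 5.1e-04, DESeq2) that stayed under the fold threshold, and the 3 ephrin-B genes thus all had an adjusted p under 0.05.

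EFNB3 was near the lower end of what these libraries resolve, with 42.0, 38.5 and 54.1 with vehicle, 34.6, 54.1 and 46.0 at the low, 40.6, 32.6 and 47.1 at the medium and 22.0, 18.9 and 30.9 at the high dose. The high dose libraries lay under those of every other group, and the log2 fold change was -0.90 ± 0.32 (adjusted p = 0.012, DESeq2). The call was lost without vehicle replicate 3, at -0.75 (adjusted p = 0.087), and without high replicate 2, at -0.75 (adjusted p = 0.088). Of the ephrin-A genes, EFNA5, a ligand of EPHA3 and EPHA5, held 179, 142 and 187 with vehicle, 164, 154 and 161 at the low, 132, 121 and 128 at the medium and 137, 87.4 and 92.6 at the high dose. Its highest high dose library lay close under its lowest vehicle library, and the log2 fold change was -0.69 ± 0.17 (adjusted p = 2.3e-04, DESeq2). Without high replicate 2 it was -0.57 (adjusted p = 0.0097) and under the fold threshold. EFNA4 held 116, 97.2 and 125 with vehicle, 128, 93.8 and 109.9 at the low, 90.4, 91.3 and 98.9 at the medium and 70.6, 66.7 and 84.2 at the high dose. Its high dose libraries lay under the others, with a log2 fold change of -0.60 ± 0.19 (adjusted p = 0.0048, DESeq2). That is a fold change of 1.52, and the call was lost without vehicle replicate 1 (-0.60 became -0.58, adjusted p = 0.025) or 3 (-0.53, adjusted p = 0.044), or high replicate 1 (-0.57, adjusted p = 0.024) or 2 (-0.53, adjusted p = 0.044). EFNA4 also shares 15% of its exon bases with the readthrough gene EFNA4-EFNA3 on the same strand. EFNA1 (99.9 ± 3.18 to 75.8 ± 2.87, adjusted p = 0.07) and EFNA3 (27.4 ± 4.45 to 29.1 ± 1.19, adjusted p = 0.86) did not pass the DESeq2 test, and 43.9% of the exon bases of EFNA3 are shared with the same readthrough gene.

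Of the semaphorins, 5 fell at the high dose: SEMA3D, SEMA4B, SEMA4D, SEMA5A and SEMA6B. SEMA5A, a membrane-spanning member that carries thrombospondin repeats (chromosome 5, 9035033 to 9546075, minus strand), gave 4980.1, 4945 and 4737 with vehicle, 4529, 4541 and 4385 at the low, 3650.1, 3653 and 3641 at the medium and 2623, 2455 and 2379 at the high dose. None of the 4 groups overlapped. Its log2 fold change was -0.12 ± 0.036 (adjusted p = 0.022) at the low, -0.42 ± 0.036 (adjusted p = 2.0e-29) at the medium and -0.98 ± 0.037 (adjusted p = 2.0e-148) at the high dose in DESeq2. SEMA3D, a secreted class 3 member, was a low gene, with 64.6, 63.1 and 57.2 for vehicle, 54.8, 58.1 and 52.3 for the low, 30.1, 29.8 and 38.6 for the medium and 18.5, 21.6 and 22.4 for the high dose. Its medium and high dose libraries each stood apart from vehicle, and its log2 fold changes were -0.90 ± 0.27 (adjusted p = 0.0039) and -1.56 ± 0.29 (adjusted p = 2.9e-07) in DESeq2. Without medium replicate 2 the medium value was -0.83 (adjusted p = 0.056), and it was not called.

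SEMA6B, a membrane-spanning partner of PLXNA4, had the largest fall of any semaphorin called. Its counts were 38.9, 49.9 and 57.2 with vehicle, 43.3, 54.1 and 48.1 at the low, 35.9, 37.3 and 30.2 at the medium and 17.4, 14.4 and 13.1 at the high dose, and the log2 fold change from vehicle to high was -1.71 ± 0.33 (adjusted p = 1.1e-06, DESeq2). SEMA4D, the ligand of PLXNB1, held 47.1, 49.9 and 65.6 with vehicle, 62.5, 49.0 and 47.1 at the low, 37.1, 37.3 and 42.4 at the medium and 26.6, 22.5 and 18.7 at the high dose. Its high dose libraries lay under all others, at a log2 fold change of -1.27 ± 0.30 (adjusted p = 7.1e-05, DESeq2). Both genes have counts under 100, so their standard errors are several times those of SEMA5A. SEMA4B held 1123, 1233 and 1200.0 with vehicle, 1169.6, 1259 and 1124 at the low, 1029, 1041 and 997 at the medium and 807, 753 and 769.8 at the high dose. Its low dose overlapped vehicle and its high dose lay lowest, with a log2 fold change of -0.61 ± 0.063 (adjusted p = 2.6e-21, DESeq2). Without vehicle replicate 2 it was -0.58 (adjusted p = 2.1e-14), under the fold threshold.

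SEMA3A lay just outside the call. It gave 2767, 2714 and 2758 with vehicle, 2427, 2559 and 2672 at the low, 2310.2, 2152 and 2247 at the medium and 1896, 1846 and 1775 at the high dose, and each dose lay under vehicle. From vehicle to high its log2 fold change was -0.58 ± 0.045 (adjusted p = 3.4e-36, DESeq2), a fold change of 1.49, and it was called without vehicle replicate 2, at -0.59, and without high replicate 1, at -0.60. SEMA3C, the highest semaphorin per length, stayed within a narrow range, with 9847, 9581 and 9299 with vehicle, 9313, 9490.1 and 9759 at the low, 8995, 9037 and 8955 at the medium and 8613, 8411 and 8461 at the high dose (log2 fold change -0.17 ± 0.027, adjusted p = 8.8e-10, DESeq2). SEMA3F went from 338 ± 9.55 to 239.6 ± 26.1 and SEMA3B from 806 ± 41.8 to 681 ± 22.3, with log2 fold changes of -0.49 ± 0.11 and -0.24 ± 0.069 (adjusted p = 2.8e-05 and 0.0012, DESeq2) that did not reach the fold threshold. The semaphorins that were higher at the high dose were SEMA4C (247, 233 and 271 to 307, 326 and 302, log2 fold change 0.32 ± 0.11, adjusted p = 0.0084) and SEMA4F (437, 441 and 439 to 494, 513 and 500.4, 0.20 ± 0.080, adjusted p = 0.032) in DESeq2, again under the fold threshold. Of the 19 semaphorins tested, 7 did not pass the adjusted p.

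SEMA7A, which signals through PLXNC1 and integrins, changed direction between doses. Its normalised counts were 1676, 1730.3 and 1884 with vehicle, 1822, 1766 and 1669 at the low, 2323, 2175 and 1921 at the medium and 1569, 1501 and 1482 at the high dose. The medium dose libraries were above all vehicle libraries and the high dose libraries below them. In DESeq2 the log2 fold change was 0.28 ± 0.063 (adjusted p = 8.0e-05) at the medium and -0.22 ± 0.064 (adjusted p = 0.0018) at the high dose, and the high dose was -0.50 ± 0.063 (adjusted p = 5.0e-14) against the medium dose. None of the 3 reached a fold change of 1.5.

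Among the receptors for semaphorins, PLXNA4 and PLXND1 fell and PLXNC1 rose. PLXNA4, a neural plexin for class 3 and class 6 ligands (chromosome 7, 132123340 to 132648688, minus strand), gave 712, 703 and 713 with vehicle, 637, 671 and 624 at the low, 555, 506 and 483 at the medium and 219, 226 and 196 at the high dose. No 2 groups overlapped, and the high dose stood at less than any other by a wide gap. Its log2 fold changes were -0.46 ± 0.080 (adjusted p = 1.0e-07) at the medium and -1.73 ± 0.091 (adjusted p = 4.2e-79) at the high dose in DESeq2, the latter a 3.32-fold fall. PLXND1, best known as a vascular plexin for SEMA3E, gave 1760.4, 1814 and 1740.1 with vehicle, 1824, 1897 and 1821 at the low, 1656, 1638 and 1698 at the medium and 1036, 969 and 1022 at the high dose. It stood slightly above vehicle at the low dose without passing the test (adjusted p = 0.62), and well under it at the high dose (log2 fold change -0.81 ± 0.050, adjusted p = 6.1e-59, DESeq2).

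PLXNC1, the plexin for SEMA7A (chromosome 12, 94148577 to 94307675, plus strand), was a low gene with 57.4, 72.7 and 60.4 for vehicle, 48.1, 78.5 and 65.9 for the low, 69.5, 69.0 and 77.3 for the medium and 93.8, 91.9 and 111 for the high dose. The high dose libraries were above all others. Its log2 fold change was 0.64 ± 0.22 (adjusted p = 0.0086, DESeq2), and it was not called without vehicle replicate 1, at 0.57 (adjusted p = 0.054), without high replicate 3, at 0.54 (adjusted p = 0.069), or with total counts as size factors, at 0.52 (adjusted p = 0.034). Genes on the opposite strand cover 9.88% of its exon bases.

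The other plexins moved less. PLXNA3 had a higher mean at each dose, with 2143, 2202 and 2216 with vehicle, 2407, 2366 and 2461 at the low, 2411, 2507 and 2751 at the medium and 2587, 2789 and 2893 at the high dose, and log2 fold changes of 0.14 ± 0.051, 0.23 ± 0.050 and 0.34 ± 0.050 (adjusted p = 0.11, 6.8e-05 and 1.5e-10, DESeq2). PLXNA2 held 739.8, 735 and 750.4 with vehicle, 704, 653 and 649 at the low, 782, 815 and 762 at the medium and 564, 575 and 523 at the high dose. Its medium dose was above vehicle and its low and high doses were under it, although neither the low nor the medium dose passed the test (adjusted p = 0.3 and 0.38, DESeq2), while the high dose had a log2 fold change of -0.42 ± 0.072 (adjusted p = 2.0e-08). PLXNB1, the receptor of SEMA4D, went from 582 ± 11.4 to 435 ± 28.7 (log2 fold change -0.42 ± 0.081, adjusted p = 6.3e-07, DESeq2). PLXNB2, the highest plexin per length, went from 6484 ± 96.1 to 5881 ± 190.2 (-0.14 ± 0.034, adjusted p = 1.0e-04). PLXNB3, a receptor of SEMA5A, held 378 ± 14.6 with vehicle and 379 ± 20.6 at the high dose (adjusted p = 0.98), and 20.4% of its exon bases are shared with SRPK3 on the same strand.

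The 2 neuropilins moved in opposite directions. NRP1 gave 14736, 14396 and 14415 normalised counts with vehicle, 13572, 13629 and 13373 at the low, 12189, 12106 and 11753 at the medium and 11071, 10646 and 10768 at the high dose. NRP2 gave 4687, 4539 and 4501 with vehicle, 5104, 5096 and 5038 at the low, 5232, 5444 and 5519 at the medium and 5605, 5370.4 and 5497 at the high dose. NRP1 went down with each step of dose and no 2 groups overlapped, whereas every dosed NRP2 library lay above every vehicle library and the medium and high doses overlapped. The DESeq2 log2 fold changes of NRP1 were -0.10 ± 0.023, -0.27 ± 0.024 and -0.42 ± 0.024 at the low, medium and high dose (adjusted p = 0.0013, 6.0e-29 and 1.6e-69). Those of NRP2 were 0.15 ± 0.031, 0.24 ± 0.031 and 0.26 ± 0.031 (adjusted p = 1.8e-04, 5.7e-13 and 3.5e-16). All 6 were under the fold threshold. The ratio of NRP2 to NRP1 normalised counts was 0.315 ± 0.0029 with vehicle, 0.376 ± 0.0015 at the low, 0.449 ± 0.020 at the medium and 0.507 ± 0.0031 at the high dose (SD, n = 3), with no overlap between groups.

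**Figure D4:**
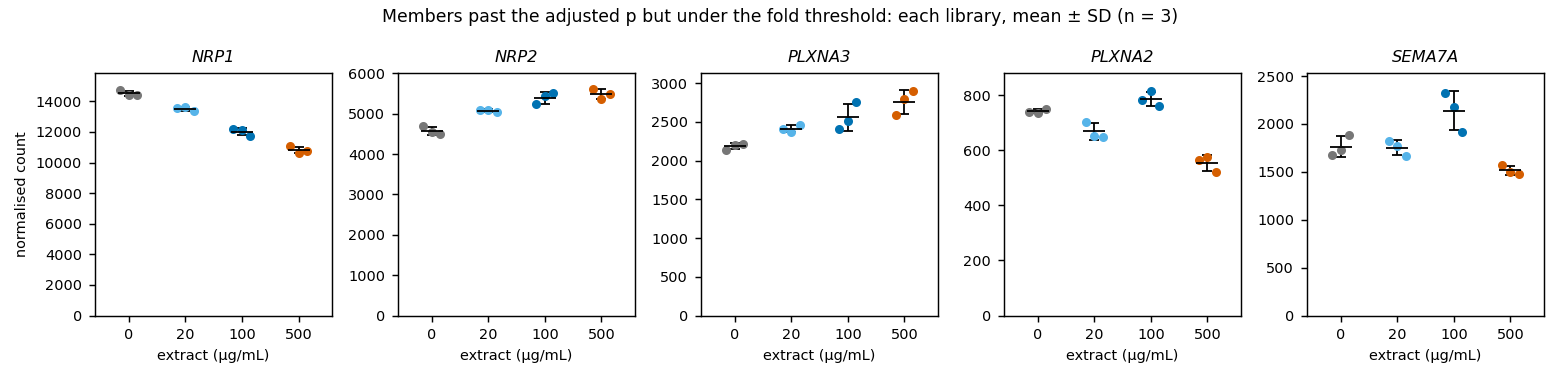
Normalised counts of NRP1, NRP2, PLXNA3, PLXNA2 and SEMA7A in each library with group mean ± SD (n = 3), against the dose of the extract in µg/mL (0 is vehicle). NRP1 sits lower and NRP2 and PLXNA3 sit higher than vehicle at every dose, while PLXNA2 and SEMA7A are highest at the medium dose and lowest at the high dose.

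Summed over each family as normalised counts per kilobase of exon, the high dose stood at 59.3% of vehicle for ephrin-B genes, 70.9% for ephrin-A genes, 72.5% for EphB receptors, 77.8% for EphA receptors, 80.5% for semaphorins, 84.0% for neuropilins and 88.5% for plexins. All guidance genes together stood at 97.6% of vehicle at the low, 93.0% at the medium and 79.7% at the high dose. Each sum leans on its highest gene. Over all libraries SEMA3C made up 49.2% of the semaphorin sum and EPHA2 79.2% of the EphA sum. Both moved little, so that these sums moved less than many of the genes in them. EFNB2, with 72.4% of the ephrin-B sum, was itself called lower.

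Between the medium and high dose, 9 of 43 guidance genes tested were called, all lower at the high dose, or 20.9%, while 10.2% of all genes were called (5.61% lower and 4.58% higher). These were EFNB2, EPHA3, EPHA4, EPHA5, EPHB3, PLXNA4, PLXND1, SEMA4D and SEMA6B. The largest log2 fold changes were those of PLXNA4, -1.27 ± 0.093 (adjusted p = 1.9e-40), SEMA6B, -1.21 ± 0.34 (adjusted p = 0.0014), and EPHB3, -1.08 ± 0.37 (adjusted p = 0.011, DESeq2). EPHB3 was not called without high replicate 1, at -0.97 (adjusted p = 0.054), or medium replicate 3, at -1.002 (adjusted p = 0.056). SEMA4D, at -0.80 ± 0.31 (adjusted p = 0.025, DESeq2), was not called without high replicate 2 or 3 or medium replicate 2 or 3, where its adjusted p lay at 0.075, 0.13, 0.053 and 0.11. The median over the 43 was -0.29, against -0.01 for all genes tested. SEMA5A passed the fold threshold without high replicate 1, at -0.59. Between the low and medium dose SEMA3D alone was called, 1 of 42, where 1.94% of all genes were, at a log2 fold change of -0.74 ± 0.27 (SE, adjusted p = 0.035, DESeq2). Same-numbered libraries of these 2 groups deviated together, and with the replicate number as a block SEMA3D was at -0.75 ± 0.32 (adjusted p = 0.095, DESeq2), so that 0 guidance genes were called. It was also not called in 9 of the 12 fits that leave out 1 library.

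Other markers moved over the same doses. The summed normalised counts per kilobase of 6 neuronal markers lay at 341 to 360 with vehicle and 132 to 137 at the high dose, those of 11 colorectal epithelial markers at 1520 to 1584 and 540 to 573.4, and those of 5 microglial and blood markers at 1326 to 1403 and 1786 to 1919. At least 1 TPM was reached by 3 of the 6 neuronal, 2 of the 11 colorectal and 3 of the 5 microglial and blood markers. The microglial and blood sum was mostly CD68, at a mean of 273 TPM beside PTPRC at 2.35 and CSF1R at 1.99 TPM. The neuronal sum was led by TUBB3, at 40.0 TPM beside SNAP25 at 4.13 and MAP2 at 3.17 TPM. The sums of 4 oligodendrocyte markers reached at most 10.5 with vehicle and 14.7 at the high dose, and those of 4 endothelial markers at most 8.73 and 7.18. The 14 astrocyte and glioma markers lay at 30611 to 32496 and 33598 to 34265. That sum was mostly VIM, CHI3L1 and CD44, at means of 3382, 1421 and 903 TPM. SOX9 was at 60.6, NES at 4.86 and SLC1A3 at 3.82 TPM, so the sum says little about the lower genes. The colorectal sum was made by KRT8 and KRT18, with CDX2 and KRT20 at 0 and EPCAM at no more than 4 counts. The part of these markers, and of the mitochondrial ribosomal RNA, in the changes of the guidance genes was not tested.

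Other axon guidance genes and the intracellular partners of these receptors were listed for comparison. In the Slit, Robo, netrin and RGM families, 7 of 20 tested genes rose and 6 fell at the high dose by the same DESeq2 rule, with a median log2 fold change of 0.19. Of all genes tested 8.66% rose and 9.57% fell, with a median of -0.01. ROBO4, an endothelial Slit receptor family member, went from 12.8 ± 4.02 to 119 ± 3.08 (log2 fold change 3.23), FLRT1 from 5.55 ± 1.61 to 36.9 ± 11.3 (2.74) and ROBO3, which sets midline crossing, from 125 ± 14.1 to 396 ± 40.6 (1.67). The netrin receptor UNC5C went from 75.2 ± 7.47 to 10.7 ± 2.50 (-2.80), NTNG1 from 143 ± 6.09 to 72.6 ± 10.7 (-0.99) and FLRT3 from 50.7 ± 4.73 to 28.8 ± 1.07 (-0.82). FLRT3 was not called without vehicle replicate 2, at -0.73 (adjusted p = 0.051, DESeq2). At the medium dose 2 of 15 rose, ROBO3 and ROBO4, and 1, UNC5C, fell, beside 3.81% of all genes called, though UNC5C was not called in 11 of the 12 fits that leave out 1 library, with adjusted p of 0.055 to 0.26.

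Of 39 tested effectors and partners of semaphorins and plexins, 4 rose and 3 fell at the high dose, with a median of 0.01, so that 7 of 39 were called, close to the 18.2% of all genes. The rises were led by RND3, from 1188 ± 39.7 to 14869.7 ± 245 (3.65), ahead of the plexin-binding RND1, from 5.55 ± 1.61 to 28.6 ± 2.24 (2.37), and CD72, an immune receptor of SEMA4D, from 12.4 ± 1.87 to 45.6 ± 8.83 (1.89). The falls were DPYSL2, the collapsin response mediator through which SEMA3A acts on microtubules, from 3015 ± 75.8 to 1753 ± 71.2 (-0.78), its relative DPYSL4, from 181 ± 17.3 to 99.9 ± 11.8 (-0.85), and the kinase CDK5, from 492 ± 30.0 to 324 ± 29.9 (-0.60). CDK5 was not called without vehicle replicate 3, at -0.55, or high replicate 1, at -0.53. At the medium dose 2 of 34 rose, RND3 and CD72, and 0 fell, beside 3.81% of all genes called. CD72 was not called without vehicle replicate 1 or 2 or medium replicate 2 or 3, with adjusted p of 0.063 to 0.13 in DESeq2.

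Of 31 tested effectors and partners of Eph receptors and ephrins, 3 rose and 5 fell at the high dose, with a median of 0.06, where 18.2% of all genes were called. SDCBP, a scaffold that binds ephrin-B tails, went from 2575 ± 70.8 to 6481 ± 319 (1.33), RASA1, a Ras GTPase-activating protein, from 1683 ± 35.2 to 3552 ± 75.6 (1.08) and ITSN2 from 578 ± 21.4 to 1077 ± 33.5 (0.90). VAV3 went from 387 ± 30.9 to 29.1 ± 3.12 (-3.74), RIN1 from 681 ± 48.1 to 234 ± 34.7 (-1.54) and CHN1, a Rac GTPase-activating protein that acts with EPHA4, from 207 ± 7.70 to 103 ± 12.7 (-0.995). At the medium dose VAV3 alone was called, 1 of 28, beside 3.81% of all genes called. At the low dose DESeq2 and edgeR each called 0 in the 3 lists, where 3 of 25, 7 of 41 and 2 of 31 genes with a count had an unadjusted p under 0.05 in the order given (5.01% of all genes).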

How the data were processed

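The submitters' processing notes name FastQC 0.11.9, Trim Galore 0.6.5, STAR 2.7.3a and RSEM 1.3.3 with GRCh38, and the study's methods describe a strand-specific library kit and paired-end reads. The table the authors deposited holds RSEM expected counts per gene, which divide reads that fit several genes among them, and 8.75% of its values were not whole. Whether RSEM used strand, and whether poly(A) selection was done, is not given in the sources used here. Groups and replicate numbers came from the sample titles and treatment labels. Whether same-numbered libraries deviated together from their group means was checked over 11264 genes. All 3 medium and low pairs had a correlation over 0.1 (0.124 to 0.193), so these numbers were taken as pairing the 2 groups, a pairing that comes from the data and not from the labels. In the other pairs of groups at most 1 of 3 pairs passed 0.1.

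The expected counts were rounded and fitted over all 12 libraries with DESeq2 1.42.0 in R 4.3.3 (two-sided Wald test, group as the sole term, Benjamini-Hochberg adjustment over all genes tested). A gene was called at an adjusted p under 0.05 and a fold change over 1.5. Independent filtering, at 0.05, left out genes with a mean normalised count under 1.72 at the high, 18.3 at the medium and 263 at the low dose. The edgeR 4.0.16 quasi-likelihood test was an alternative. Symbols and exon lengths came from GENCODE v44, which held 93.2% of the gene IDs. Totals of 18863863 to 24200576 counts per library set the precision, and standard errors are given beside the values. Pairwise chi-square statistics per degree of freedom between replicates were 1.99 to 3.55, and all libraries were kept. The highest, 3.45 and 3.55, were those of low replicate 1 with low replicates 2 and 3, which gave 2.66 between them. The limit of 3 counts for a gene at 0 covers counting error only.

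The guidance genes and the lists were chosen with earlier results of these data known. Values in every library were given by rule for genes called against vehicle and for the highest gene per length of each family group, and from the other lists the 3 largest called changes each way at the high dose. Other genes were named to account for their families after their values were seen.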

Additional observations from a re-analysis of the deposited data

Results flagged for a closer look

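SEMA7A moved up at the medium dose and down at the high one, and the difference between those doses was itself tested. Its normalised counts were 2139.8 ± 203 at the medium and 1517 ± 45.7 at the high dose, beside 1763 ± 108 with vehicle (SD, n = 3). The log2 fold change between the high and medium dose was -0.50 (adjusted p = 5.0e-14, DESeq2), under the fold threshold. Medium replicate 3, the lowest of its group, still lay above every vehicle library.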

How the results depend on the processing

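The counts of guidance genes called depended most on how the fold threshold was applied. With the adjusted p alone, DESeq2 called 35 at the high, 14 at the medium and 4 at the low dose, 24 between the medium and high dose and 15 between the low and medium dose, in place of 17, 3, 0, 9 and 1. Of all genes tested, that rule called 46.5% at the high, 29.5% at the medium and 3.29% at the low dose. It called 6738 of 16467 genes between the medium and high dose and 2657 of 14082 between the low and medium dose. With a Wald test against a fold of 1.5 itself, the counts were 9 for high and 0 for medium against vehicle, 1 between the medium and high dose and 0 between the low and medium dose. Over all genes, that test called 1491 of 18259 at the high and 114 of 17064 at the medium dose. Between the medium and high dose it called 480 of 18856, and between the low and medium dose 68 of 14678. In the other lists at the high dose, the adjusted p alone gave 22 of 39 in place of 7 (semaphorin and plexin partners). For Eph and ephrin partners it gave 21 of 31 in place of 8, beside 46.5% of all genes. The Wald test against the fold gave 6 in place of 13 (Slit, Robo, netrin and RGM families) and 5 in place of 8 (Eph and ephrin partners). The single call between the low and medium dose became 0 without independent filtering, with those groups fitted alone and with the replicate block. Leaving out 1 library gave 13 to 17 calls for high against vehicle, 2 to 3 for medium and 0 to 1 between the low and medium dose. The 13 came without high replicate 2, where EFNA4, EFNA5, EFNB3 and EPHB2 were not called. edgeR called the same 17 genes for high against vehicle, 2 for medium and 11 between the medium and high dose. Of all 15983 genes it tested, it called 3901, 809 and 2035 in these comparisons. The sum of guidance genes with vehicle was 1946 TPM, and 1878 TPM with the length of the longest transcript. Every guidance gene past the adjusted p, 35, 14, 4 and 24 by comparison, kept its sign in all 23 alternatives run. Several alternatives reuse the same fitted fold changes or leave out a library of a group not compared. There the sign could not change or could hardly change.

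Replicate numbers were shared by the 4 groups. Of 18 same-numbered pairs 5 had a correlation over 0.1, among them all 3 of the medium and low groups (range -0.118 to 0.221), and 8 of 12 libraries correlated best with a library of their own number. With the replicate block, SEMA3D was no longer called between the low and medium dose, calls stayed at 17, 3 and 0 against vehicle, and were 8 between the medium and high dose, without SEMA4D.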
